A study of Mus musculus with 18 samples.

Results

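Ctse, Chil1, Lmod1, Phlda3 and Ppp1r12b are 5 genes that lie within 4.13 Mb of each other on mouse chromosome 1 and that were chosen by their counts in young muscle, where the knockout differed from its controls. They are 5 of 15224 genes measured in quadriceps. Their young values below are therefore a description of how they were chosen, with no test. The tests rest on old muscle, whose knockout difference the choice did not use. The fit behind the choice took its spread from all 18 libraries, the old ones included.

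The study sequenced RNA from quadriceps muscle of C57/Bl6 mice of 3 genotypes at 17 months (old) and at 2 months (young), with 3 libraries for each genotype and age and 18 in all. Knockout mice carried Pofut1 flox/flox alleles and Cre recombinase driven by the skeletal alpha actin promoter, so that Pofut1 is lost where that promoter is active, in muscle fibres, while other cells of the muscle keep it. Cre controls carried the same Cre with wild-type Pofut1, and floxed controls carried Pofut1 flox/flox without Cre. No group has neither the Cre nor the floxed alleles. High Xist, the RNA that silences the second X chromosome of females, was found in libraries 17, 40, 99, 35, 46 and 5 of old and 82, 94 and 32 of young muscle (260 to 335 CPM in old, 269 to 285 CPM in young libraries), and the others had at most 1.52 CPM. Both kinds occur in every group. Libraries are named by the number in their titles: 17, 45 and 40 for old knockout, 99, 35 and 34 for old Cre, 48, 46 and 5 for old floxed, 80, 82 and 83 for young knockout, 93, 94 and 61 for young Cre, and 32, 57 and 92 for young floxed. No label states that each library is a separate mouse, so p-values measure the spread between libraries. Values are counts scaled to library size (CPM, as edgeR computes it), and library totals ran from 24901936 to 31440196 counts.

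Pofut1 encodes the enzyme that attaches O-fucose to EGF-like repeats, above all those of Notch receptors, which need it to signal fully. The 5 genes do not form a pathway. Lmod1, leiomodin 1, starts new actin filaments and is best known from smooth muscle, and Ppp1r12b, also called MYPT2, is the subunit that targets myosin phosphatase to myosin in striated muscle. Phlda3 is a small membrane-binding protein induced by p53 that holds back the kinase Akt. Ctse, cathepsin E, is an aspartic protease of endosomes that is found in immune and gastric cells, and Chil1 is a secreted chitinase-like lectin without enzyme activity that is made by macrophages and neutrophils among others.

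On the GRCm38 assembly, with positions from RefSeq matched by Entrez number, the genes run along chromosome 1 in the order Ctse, Chil1, Ppp1r12b, Lmod1 and Phlda3. Ctse (Entrez 13034) spans 131638314 to 131675507 on the plus strand. Chil1 (Entrez 12654) spans 134182156 to 134190031 on the plus strand and starts 2.54 Mb from the start of Ctse. Ppp1r12b (Entrez 329251) spans 134754658 to 134955963 on the minus strand. Lmod1 (Entrez 93689) spans 135324813 to 135368065 and Phlda3 (Entrez 27280) spans 135766085 to 135769134, both on the plus strand. From Ctse to Phlda3, both included, 57 genes were measured, so the 5 are not direct neighbours. The measured gene model Gm32670 overlaps Ppp1r12b, and no source used here gives the strand of counting, so reads from the shared part cannot be told apart. Counted separately, Gm32670 averaged 0.378 CPM over the 18 libraries and Ppp1r12b 311 CPM.

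The stretches just before a transcript start of 4 of the genes, from RefSeq on GRCm38.p6, are shown because the genes lie close together and differed in the same libraries. Capitals mark E-boxes (CANNTG, the site of MyoD-like and other basic helix-loop-helix factors) and the core of the RBPJ site (TGGGAA, or TTCCCA on the other strand), the DNA partner of Notch.
Chil1 (chr1:134181906-134182155, plus strand): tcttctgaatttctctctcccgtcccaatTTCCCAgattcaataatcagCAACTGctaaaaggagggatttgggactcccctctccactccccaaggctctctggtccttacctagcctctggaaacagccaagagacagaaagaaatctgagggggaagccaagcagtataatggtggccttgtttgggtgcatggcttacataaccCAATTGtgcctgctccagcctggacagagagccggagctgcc
Ppp1r12b (chr1:134955941-134956190, minus strand): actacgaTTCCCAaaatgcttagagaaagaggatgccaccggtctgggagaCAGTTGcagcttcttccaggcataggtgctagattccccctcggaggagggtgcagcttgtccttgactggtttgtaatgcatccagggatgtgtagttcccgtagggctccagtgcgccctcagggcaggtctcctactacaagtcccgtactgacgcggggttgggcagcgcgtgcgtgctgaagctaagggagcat
Lmod1 (chr1:135324563-135324812, plus strand): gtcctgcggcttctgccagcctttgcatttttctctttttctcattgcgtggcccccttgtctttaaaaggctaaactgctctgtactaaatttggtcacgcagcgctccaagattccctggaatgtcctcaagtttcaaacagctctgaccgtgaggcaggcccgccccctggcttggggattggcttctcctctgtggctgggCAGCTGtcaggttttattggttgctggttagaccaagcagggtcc
Phlda3 (chr1:135765835-135766084, plus strand): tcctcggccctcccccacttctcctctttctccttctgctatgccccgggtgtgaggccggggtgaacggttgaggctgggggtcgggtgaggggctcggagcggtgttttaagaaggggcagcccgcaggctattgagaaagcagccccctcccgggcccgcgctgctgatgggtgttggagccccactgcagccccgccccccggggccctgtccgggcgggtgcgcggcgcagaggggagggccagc
Searches covered both strands of these stretches and the first bases after the start. Chil1 and Ppp1r12b each had 2 E-boxes and 1 RBPJ core there, and 1 E-box of Ppp1r12b runs across the start and is not marked. Lmod1 had 2 E-boxes, 1 of which lies past the start and is not printed, and no RBPJ core. The start used for Ppp1r12b is that of a transcript that begins just inside the outer end of the gene. Phlda3 had neither, in a stretch with a GC content of 71.2%. A second, internal start of Ppp1r12b had 2 E-boxes and no RBPJ core. Over 32851 promoters of the same length, 72.3% held an E-box and 25.6% an RBPJ core. No TATA box (TATAAA, in 13.6% of all), p53 half-site (8.36%) or CArG box (1.63%), the site of serum response factor, was found in any of the 4 genes. A match of letters is a description and does not show a bound site.

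In young muscle the targeted gene Pofut1 had 9.61, 9.30 and 9.61 CPM in the knockout libraries, against 16.2, 19.0 and 13.8 CPM in Cre and 19.6, 17.8 and 17.0 CPM in floxed libraries. All young knockout libraries were below all young controls (log2 change -0.86, SE 0.138; edgeR quasi-likelihood test, adjusted p = 0.0278). In old muscle Pofut1 had 10.6, 10.5 and 16.3 CPM in knockout libraries 17, 45 and 40, against 18.3, 15.8 and 16.3 CPM in Cre and 13.5, 14.8 and 12.7 CPM in floxed libraries. The library labelled old knockout 40 thus had a Pofut1 level within the old controls, and the old difference did not pass the test (log2 -0.29, SE 0.149, adjusted p = 0.314). Old values without that library are given after those with all 3. Acta1, whose promoter drives the Cre, averaged 14690 ± 808 CPM in old knockout and 16110 ± 1208 CPM in old control libraries (SD, n = 3 and n = 6), and 15760 ± 2089 CPM in young knockout and 15790 ± 1708 CPM in young control libraries.

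Lmod1 and Ppp1r12b, the genes of the contractile apparatus, differed in opposite directions in young knockout muscle. Lmod1 had 11.4, 12.8 and 17.0 CPM in young knockout libraries 80, 82 and 83, against 4.29, 4.48 and 4.20 CPM in young Cre and 5.16, 3.10 and 4.75 CPM in young floxed libraries. Every knockout library was above every control, and the 2 control genotypes overlapped. The log2 difference was 1.66 (SE 0.253), or 3.16-fold. Ppp1r12b had 191.5, 219.4 and 175.6 CPM in young knockout, against 303.1, 299.0 and 350.0 CPM in young Cre and 309.0, 320.5 and 321.9 CPM in young floxed libraries. All 3 knockout libraries were below all 6 controls, with a log2 difference of -0.70 (SE 0.118), the smallest of the 5.

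Among the chosen genes, Phlda3 had the largest shortfall in young knockout muscle. It had 8.81, 9.30 and 12.6 CPM in young knockout libraries, against 52.4, 45.0 and 59.7 CPM in young Cre and 20.6, 39.3 and 37.5 CPM in young floxed libraries. The highest knockout library was below the lowest control, floxed 32, and the log2 difference was -2.01 (SE 0.265). Every young Cre library was also above every young floxed library, at 52.4 ± 7.35 CPM in Cre and 32.5 ± 10.3 CPM in floxed muscle (SD, n = 3 each). That log2 difference of 0.69 (SE 0.273) was not tested, and the share of all genes so separated between the controls is not given here.

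Ctse and Chil1, the protease and the secreted lectin, were close to the limit of detection in controls. Ctse had 1.86, 1.71 and 0.718 CPM in young knockout libraries, from 49, 49 and 19 counts. The young controls had 0.103, 0.0373 and 0.140 CPM in Cre and 0.108, 0.324 and 0.103 CPM in floxed libraries, from 1 to 9 counts each. Chil1 had 1.44, 1.43 and 0.945 CPM in young knockout libraries, against 0.103, 0.261 and 0.0350 CPM in young Cre and 0.143, 0.108 and 0.138 CPM in young floxed libraries. Neither gene overlapped between knockout and controls, and both were lower in knockout 83 than in knockouts 80 and 82. The log2 differences were 3.42 (SE 0.549) for Ctse and 3.24 (SE 0.444) for Chil1, about 10.7-fold and 9.47-fold. Lmod1 and Phlda3 had their highest knockout value in that same library 83, so the 3 young knockout libraries do not order alike over the 5 genes.

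**Figure D1:**
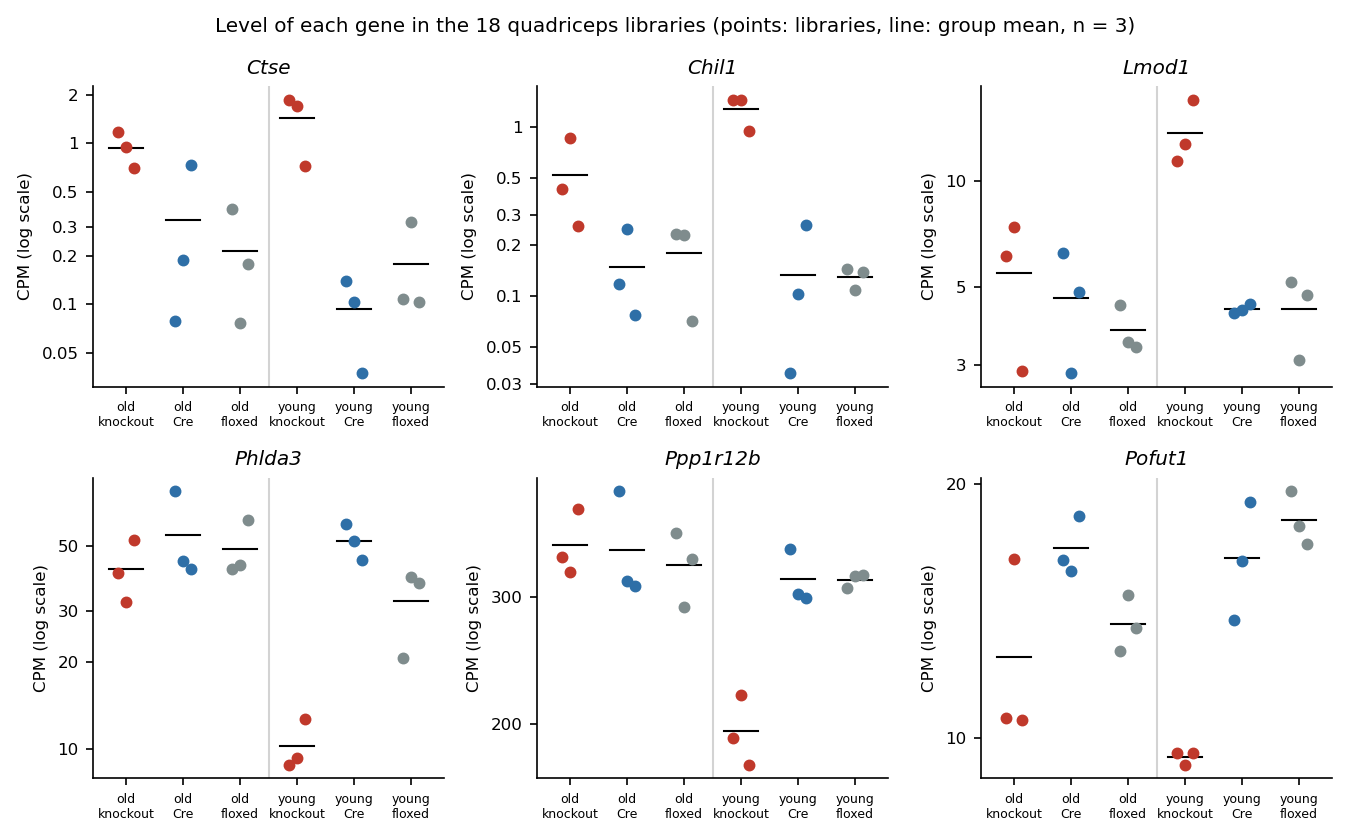
CPM on a log axis of the 5 genes and of Pofut1 in each of the 18 libraries (points), with the mean of each group (line, n = 3). In young muscle the knockout points stand clear of both controls for all 6 genes, and in old muscle they overlap the controls for all but Chil1.

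Per kilobase of merged exons (GENCODE M21), the scale on which genes can be compared, Ppp1r12b and Phlda3 changed places in young knockout muscle. Ppp1r12b was at 13.1 CPM per kb in young knockout and 21.2 in young control muscle, and Phlda3 at 6.57 CPM per kb in young knockout and 27.2 in young control muscle. Lmod1 was at 3.47 CPM per kb in young knockout and 1.10 in young control muscle. Ctse was at 0.451 and Chil1 at 0.454 CPM per kb in young knockout, against 0.0428 for Ctse and 0.0469 for Chil1 in young controls. In old muscle Phlda3 was at 26.8 CPM per kb in knockout and 33.2 in controls, and Ppp1r12b at 23.7 CPM per kb in knockout and 22.8 in controls. Lmod1 followed at 1.38 CPM per kb in old knockout and 1.06 in old controls. The order from Phlda3 and Ppp1r12b down to Lmod1 and then Ctse and Chil1 held in both control sets and in old knockout muscle. Within it Phlda3 was above Ppp1r12b in 2 of 3 old knockout and 6 of 6 old control libraries, and in 0 of 3 young knockout and 5 of 6 young control libraries. Ctse was above Chil1 in 2 of 3 old knockout and 3 of 6 old control libraries, and in 2 of 3 young knockout and 2 of 6 young control libraries, so these 2 had no settled order.

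In the young comparison over all genes, 10 of 15224 passed an adjusted p of 0.05 (0.0657%), and the 5 genes are among them because they were chosen that way. Full separation above the controls was found for 2.76% of all genes and below them for 2.81%.

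The choice did not use the knockout difference in old muscle, and none of the 5 genes passed there. In the edgeR test of old knockout against both old controls, fitted to the 9 old libraries, 2 of 15004 genes were called (0.0133%; 2733 at an unadjusted p under 0.05, and 380 called with DESeq2). Without knockout 40 the count was 526 of 15091 (3.49%). The 2 genes called with all 9 old libraries were Hal, histidine ammonia-lyase, on chromosome 10 and the gene model LOC102640133 on chromosome 15. Both were also lower in old Cre than in old floxed muscle (log2 -5.37 for Hal and -2.75 for LOC102640133). Neither was called against old floxed controls alone. Ctse and Chil1 were the members with the largest differences, both in the direction seen in young muscle, while Lmod1, Phlda3 and Ppp1r12b differed little.

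Ctse had 1.17, 0.703 and 0.941 CPM in old knockout libraries 17, 45 and 40, against 0.729, 0.187 and 0.0786 CPM in old Cre and 0.177, 0.0766 and 0.389 CPM in old floxed libraries. Libraries 17 and 40 were above all controls, and 45 was just below Cre 99. The means were 0.937 ± 0.231 CPM in old knockout and 0.273 ± 0.251 CPM in old controls (SD, n = 3 and n = 6). The log2 difference was 1.80 (SE 0.55), with an unadjusted p = 0.00823 and an adjusted p = 0.196. It was 2.11 against floxed (adjusted p = 0.162) and 1.50 against Cre controls (adjusted p = 0.512). Ctse passed the filter on low counts only because of the 3 knockout libraries. Of the controls only Cre 99 and floxed 5 reached its level, too few to pass alone. Its test is therefore not independent of a high knockout level. Without the filter the edgeR test gave a log2 difference of 1.80 (adjusted p = 0.197).

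Chil1 was below that filter in old muscle, and its values come from the fit without a filter. It had 0.427, 0.259 and 0.862 CPM in old knockout libraries 17, 45 and 40, from 11, 7 and 22 counts. Old Cre libraries had 0.0767, 0.250 and 0.118 CPM, and old floxed libraries 0.0708, 0.230 and 0.234 CPM, from 2 to 8 counts. All 3 knockout libraries were above all 6 controls, although library 45 exceeded Cre 35 only after scaling, with 7 counts in knockout 45 and 8 in Cre 35. Over all genes 3.89% were separated above and 4.32% below the controls in this way in old muscle. The log2 difference was 1.61 (SE 0.51, adjusted p = 0.197), and it was 1.05 without knockout 40 (adjusted p = 0.303). Exact two-sided permutation tests of log2 CPM, 3 libraries against 6 and unadjusted for the 5 genes tested, gave p = 0.0238 for Chil1, the smallest this design allows, and p = 0.0476 for Ctse. Without knockout 40 the exact p was 0.0714 for Chil1, the smallest that 2 libraries against 6 allow, and 0.143 for Ctse.

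Lmod1 had 6.10, 2.89 and 7.37 CPM in old knockout libraries 17, 45 and 40, against 4.83, 2.84 and 6.25 CPM in old Cre and 3.36, 3.49 and 4.44 CPM in old floxed libraries. Library 40 was above all controls, 17 was within them, and 45 was next to the lowest control. The means of 5.45 ± 2.31 CPM in old knockout and 4.20 ± 1.24 CPM in old controls (SD, n = 3 and n = 6) gave a log2 difference of 0.37 (SE 0.302, adjusted p = 0.515).

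Phlda3 had 40.4, 52.6 and 32.2 CPM in old knockout libraries 17, 45 and 40, against 41.9, 44.5 and 77.6 CPM in old Cre and 61.6, 43.2 and 41.7 CPM in old floxed libraries. Libraries 17 and 40 were below all 6 controls, 17 by a small margin, and 45 was among them. Library 45 is the old knockout with low Xist, and it was below both old controls with low Xist, Cre 34 at 77.6 CPM and floxed 48 at 61.6 CPM. The log2 difference was -0.32 (SE 0.243, adjusted p = 0.486), and it was -0.29 with Xist as a covariate (SE 0.117, adjusted p = 0.226). Ppp1r12b had 340.7, 397.6 and 325.5 CPM in old knockout, against 310.8, 316.1 and 420.8 CPM in old Cre and 339.1, 290.2 and 368.3 CPM in old floxed libraries. All 3 knockout libraries were within the controls, and the log2 difference was 0.05 (SE 0.139, adjusted p = 0.872). Exact permutation p-values were 0.429 for Lmod1, 0.262 for Phlda3 and 0.643 for Ppp1r12b. Such p-values do not show that the levels were equal.

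**Figure D2:**
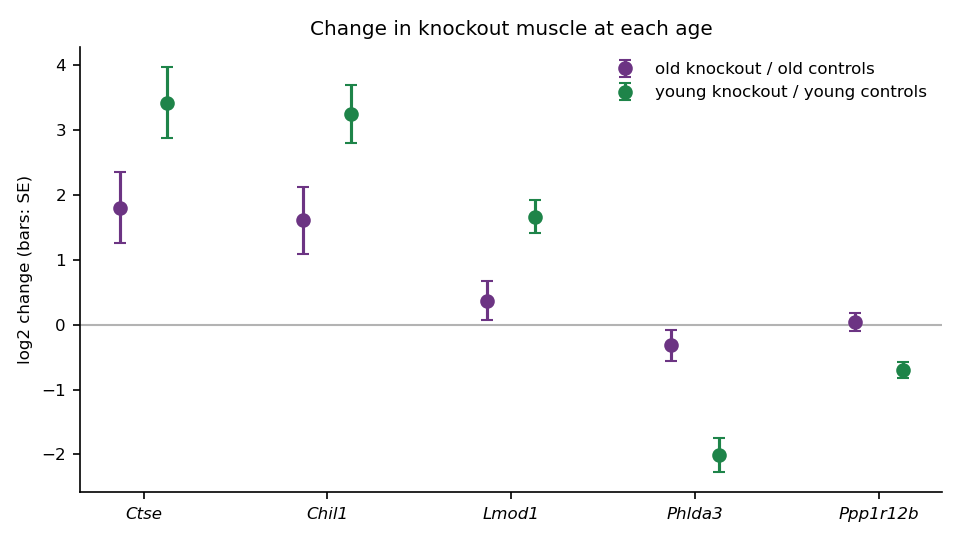
Log2 change of each gene in old knockout over old controls (left of each pair) and in young knockout over young controls (right), with the SE as bars. The old values run from -0.32 for Phlda3 to 1.80 for Ctse, and the young values from -2.01 for Phlda3 to 3.42 for Ctse. The young values chose the genes, so the difference between ages was not tested.

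The comparisons with each old control gave no further call among the 5 genes. Against old floxed controls 0 of 15004 genes passed edgeR's test (0%; 3222 at an unadjusted p under 0.05, and 604 called with DESeq2), and 522 without knockout 40. Against old Cre controls 2 passed (0.0133%; 73 with DESeq2), and 49 without knockout 40. For Lmod1 the log2 differences were 0.53 against floxed (adjusted p = 0.398) and 0.22 against Cre (adjusted p = 0.853). For Phlda3 they were -0.23 against floxed (adjusted p = 0.645) and -0.40 against Cre (adjusted p = 0.637), and for Ppp1r12b 0.09 against floxed (adjusted p = 0.772) and 0.01 against Cre (adjusted p = 0.99). Chil1 differed by 1.51 against floxed (adjusted p = 0.206) and by 1.70 against Cre (adjusted p = 0.491). Without knockout 40 none of the 5 passed against either control, with adjusted p-values of 0.138 to 0.982, and Lmod1 was at 0.27 against floxed and -0.03 against Cre. These 2 comparisons share the knockout libraries. Between the control genotypes, Cre against floxed, 2 genes were called in old muscle (0.0133%), again Hal and LOC102640133, and none of the 5. There the log2 differences were 0.61 for Ctse (adjusted p = 0.833), -0.20 for Chil1 (0.948), 0.31 for Lmod1 (0.823), 0.17 for Phlda3 (0.874) and 0.08 for Ppp1r12b (0.901). The difference of Phlda3 between Cre and floxed muscle thus did not pass the test in old muscle and was not tested in young muscle.

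For Lmod1 the authors' deposited table lists a log2 change of 0.52 against floxed (adjusted p = 0.280) and 0.23 against Cre controls (adjusted p = 0.800). The authors' deposited table has Phlda3 at -0.24 against floxed (adjusted p = 0.608) and -0.39 against Cre (adjusted p = 0.555), and Ppp1r12b at 0.08 against floxed (adjusted p = 0.740) and 0.02 against Cre (adjusted p = 0.961). For Ctse and Chil1 the authors' deposited table gives log2 changes with no adjusted p in these 2 old comparisons.

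Set side by side, old and young knockout muscle differed most for Phlda3, with 41.8 ± 10.3 CPM in old knockout and 10.2 ± 2.08 CPM in young knockout libraries (SD, n = 3 each; log2 2.03). Ppp1r12b was at 355 ± 38.0 CPM in old knockout and 195.5 ± 22.2 CPM in young knockout libraries (log2 0.86). Lmod1 was at 5.45 ± 2.31 CPM in old knockout and 13.7 ± 2.95 CPM in young knockout libraries (log2 -1.33). Chil1 had 0.516 ± 0.311 CPM in old knockout and 1.27 ± 0.283 CPM in young knockout libraries (log2 -1.30), and Ctse 0.937 ± 0.231 CPM in old knockout and 1.43 ± 0.62 CPM in young knockout libraries (log2 -0.61). In floxed muscle the log2 differences of old against young were between -0.21 for Lmod1 and 0.59 for Phlda3. In Cre muscle they were between 0.06 for Phlda3 and 0.22 for Chil1, apart from 1.75 for Ctse, whose old Cre mean rests on library 99. No test is given, since the young libraries chose the genes.

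**Figure D3:**
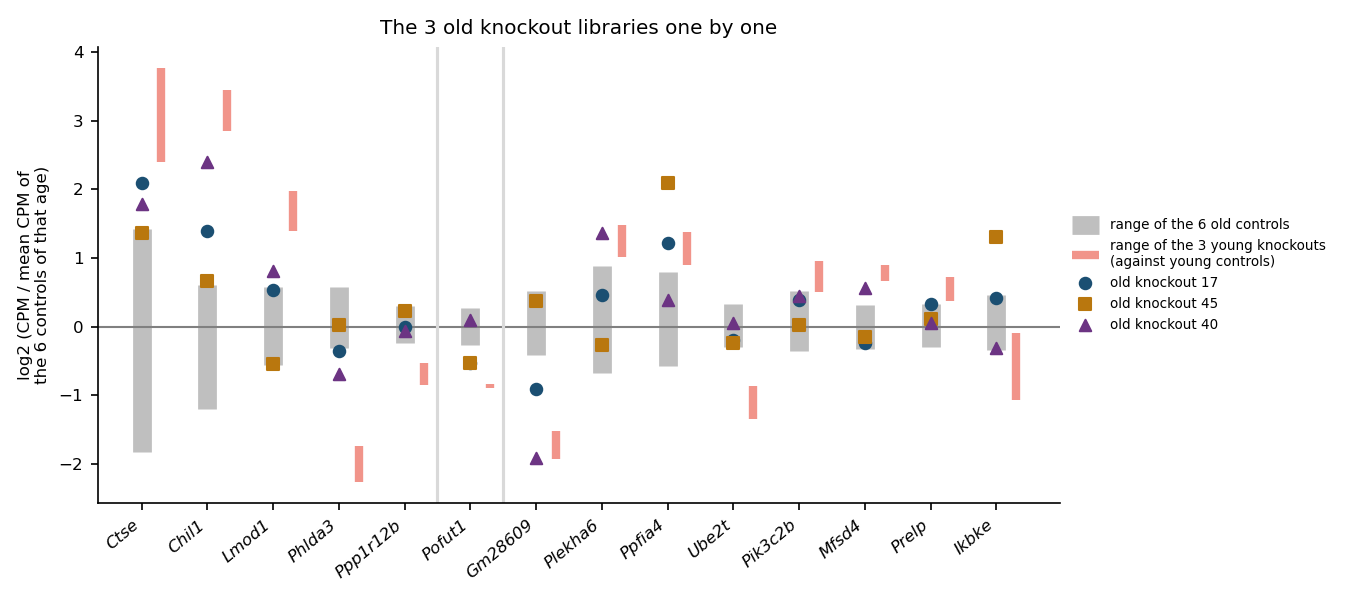
Log2 of CPM over the mean of the 6 old controls for each old knockout library (circle 17, square 45, triangle 40), beside the range of the 6 old controls (grey bar) and that of the 3 young knockouts against young controls (pink bar). Shown are the 5 genes, Pofut1, and 8 other genes of the same 10 Mb. Library 40 lies nearest to or within the young knockout range for Chil1, Lmod1, Phlda3, Ppp1r12b, Gm28609, Plekha6, Pik3c2b, Mfsd4 and Ikbke, library 17 for Ctse, Ppfia4 and Prelp, and library 45 for Ube2t and Pofut1.

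The old knockout libraries differed among themselves, both in Pofut1 and in Xist. Library 45, with 10.5 CPM of Pofut1 and low Xist, was within the controls for Ctse, Lmod1, Phlda3 and Ppp1r12b. Library 40, with 16.3 CPM of Pofut1 and high Xist, had the highest Chil1 and Lmod1 and the lowest Phlda3 of the 3. Library 17, with 10.6 CPM of Pofut1 and high Xist, was above the controls for Ctse and Chil1, below them for Phlda3 and within them for Lmod1 and Ppp1r12b. Without library 40 the log2 differences against both controls were 1.82 for Ctse (adjusted p = 0.145), 0.12 for Lmod1 (adjusted p = 0.859), -0.14 for Phlda3 (adjusted p = 0.789) and 0.13 for Ppp1r12b (adjusted p = 0.659).

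Comparing old libraries only with those of like Xist changed which genes overlapped. The knockout libraries with high Xist are 17 and 40, set against Cre 99 and 35 and floxed 46 and 5, and the one with low Xist is 45, set against Cre 34 and floxed 48. Ctse and Chil1 were then above the controls, and Phlda3 below them, in both sets of libraries. Over all genes 6.36% were above and 7.07% below the controls in both sets. Lmod1 was above the controls among high-Xist libraries, where knockouts 17 and 40 had 6.10 and 7.37 CPM against 2.84 to 4.83 CPM in controls. Among low-Xist libraries it was below them, with 2.89 CPM in knockout 45 against 6.25 CPM in Cre 34 and 3.36 CPM in floxed 48. Ppp1r12b overlapped in both sets. With Xist as a covariate the adjusted p-values were 0.156 for Ctse, 0.155 for Chil1, 0.553 for Lmod1 and 0.826 for Ppp1r12b. The split was made after seeing the data, and whether the knockout difference varies with Xist was not tested.

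The 5 genes were not the only ones of their stretch that differed in young knockout muscle. Of 86 measured genes that start in the same 10 Mb (130 to 140 Mb), 81 are not among the 5. In young muscle 8 of these (9.88%) were above all controls in every knockout library and 10 (12.3%) were below, against 2.76% and 2.81% of all genes, and 63 overlapped. None of the 81 was called by edgeR in young muscle (17 at an unadjusted p under 0.05, or 21.0%, against 8.53% of all genes). DESeq2 called 5 of the 81 in young muscle, and 67 over all genes. Their median absolute log2 change was 0.207, against 0.134 over all genes, while the median signed change was 0.01. In old muscle 3 of the 81 (3.70%) were separated above and 1 (1.23%) below the old controls, close to the 3.89% and 4.32% of all genes. Of 78 that could be tested in old muscle, 0 were called by edgeR (13 at an unadjusted p under 0.05, or 16.7%, against 18.2% of all genes). DESeq2 called 1 of the window in old muscle, Ppfia4, and 380 over all genes. Without knockout 40, edgeR called 7 of 80 (8.75%), all higher and Ppfia4 among them, against 3.49% of all genes. The window was set with the young result known, so these counts describe the stretch and test nothing.

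**Figure D4:**
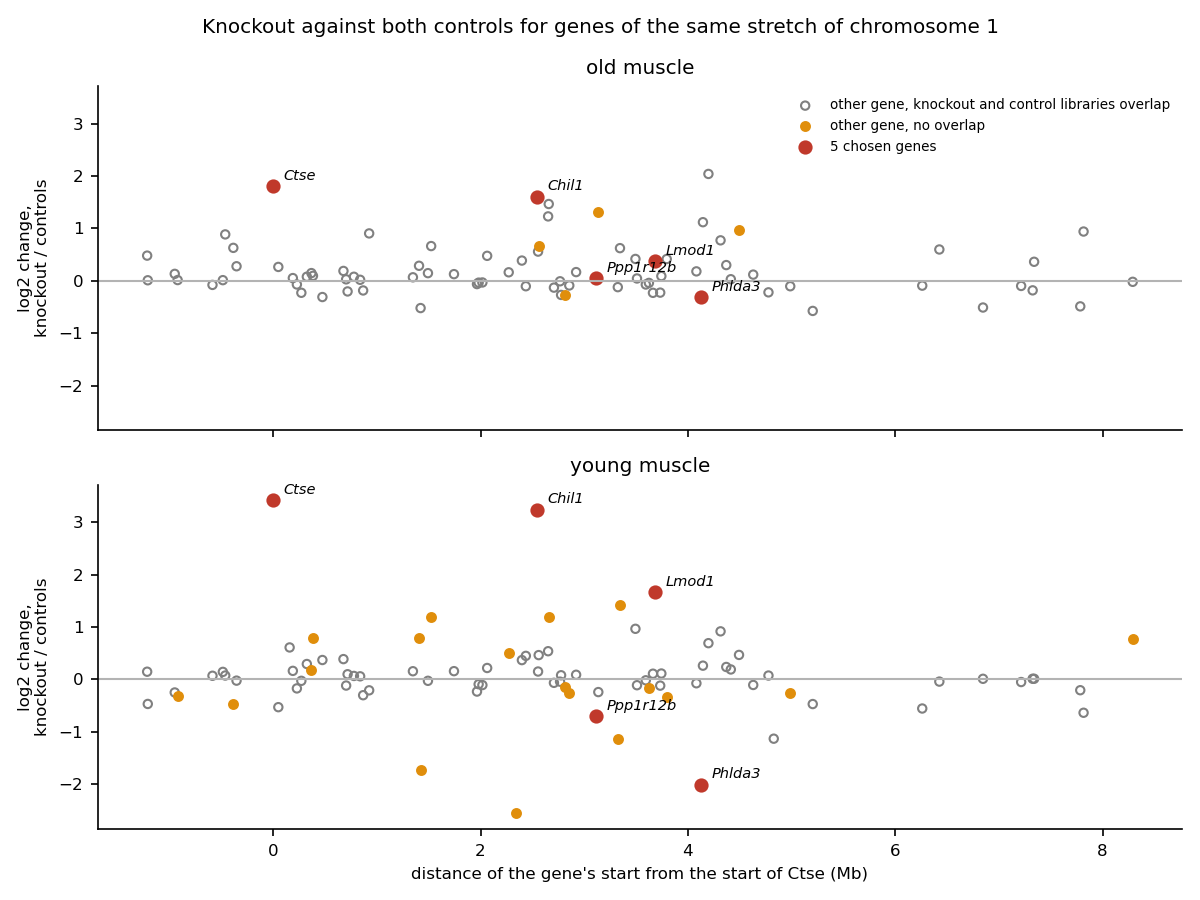
Log2 change of knockout over both controls for each measured gene of the 10 Mb, by the distance of its start from the start of Ctse, in old muscle (top) and young muscle (bottom). Red points are the 5 genes, orange points are others whose knockout and control libraries do not overlap (4 in old and 18 in young muscle), and open points overlap.

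By a rule of size among separated genes of at least 1 CPM, 8 were singled out in young muscle, 5 higher and 3 lower. Gm28609, a gene model, had the largest shortfall of the 8, with 0.950, 0.732 and 0.719 CPM in young knockout, against 2.71, 2.73 and 4.51 CPM in young Cre and 2.26, 2.09 and 2.10 CPM in young floxed libraries (log2 -1.73, SE 0.406). In old muscle it had 2.06, 5.00 and 1.02 CPM in knockout libraries 17, 45 and 40, against 3.53, 4.52 and 3.50 CPM in old Cre and 3.18, 5.51 and 2.88 CPM in old floxed libraries. Libraries 17 and 40 were below all old controls and 45 was not, the arrangement also seen for Phlda3 (log2 -0.52, adjusted p = 0.512, and -0.11 without library 40, adjusted p = 0.875).

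Pik3c2b, a class II phosphoinositide kinase close to Gm28609, was higher, with 28.1, 26.2 and 20.7 CPM in young knockout, against 12.9, 17.4 and 15.3 CPM in young Cre and 14.4, 15.0 and 12.1 CPM in young floxed libraries (log2 0.79, SE 0.169). In old muscle its knockout libraries were all within the controls (log2 0.29, adjusted p = 0.405, and 0.23 without library 40, adjusted p = 0.572). Ppfia4, a liprin scaffold protein, was the one of these 8 that differed most in old muscle, with 2.91, 5.37 and 1.65 CPM in knockout libraries 17, 45 and 40, against 1.53, 2.18 and 1.22 CPM in old Cre and 0.849, 0.843 and 0.895 CPM in old floxed libraries. Libraries 17 and 45 were above all controls and 40 was not (log2 1.47, SE 0.329, adjusted p = 0.149), and without library 40 it was called (log2 1.80, SE 0.266, adjusted p = 0.0158). In young muscle Ppfia4 had a log2 difference of 1.19 (SE 0.327).

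The remaining 5 neighbours were Plekha6, a pleckstrin homology protein (young log2 1.20), the transporter gene Mfsd4 (0.78), Prelp, a matrix proteoglycan (0.51), Ube2t, a ubiquitin-conjugating enzyme of DNA repair (-1.13), and Ikbke, a kinase of innate immune signalling (-0.48). In old muscle the log2 differences were 0.66 for Plekha6, 0.09 for Mfsd4, 0.16 for Prelp, -0.12 for Ube2t and 0.63 for Ikbke, with adjusted p-values of 0.336 to 0.812. Without library 40 they were 0.15 for Plekha6, -0.17 for Mfsd4, 0.24 for Prelp, -0.19 for Ube2t and 0.95 for Ikbke (adjusted p = 0.113 to 0.851). Gm28609, Plekha6, Ppfia4, Ube2t, Pik3c2b and Mfsd4 differed by more than Ppp1r12b in young muscle and were not called by edgeR, with SEs of 0.169 to 0.406 against 0.118 for Ppp1r12b. Of the 18 separated neighbours, those on the young side of the old control mean numbered 11 in old knockout 17, 10 in 45 and 13 in 40. Those beyond all old controls on that side numbered 6 in library 17, 3 in 45 and 6 in 40, and those beyond them on the other side 1 in library 17, 3 in 45 and 0 in 40. Klhl12, a ubiquitin ligase adaptor, was the 1 neighbour separated the same way at both ages, with log2 differences of -0.28 in old muscle (adjusted p = 0.217) and -0.14 in young muscle. For the counts per old knockout library and for separation at both ages, the share over all genes is not given here. They are a description and cannot be set against a background.

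Along the chromosome separated genes in young muscle were not limited to those 10 Mb. Over all genes 2.76% were separated above and 2.81% below the controls in young muscle, and 3.89% and 4.32% in old muscle. The window shares below count both directions, and windows of 12 to 23 genes rest on few genes. In the 10 Mb before them 1 of 23 genes was separated in old muscle (4.35%) and 7 of 23 in young muscle (30.4%), and in the 10 Mb after them 0 of 12 in old and 2 of 12 in young muscle (16.7%). From 150 Mb on, the 4 windows had 6.52 to 11.5% in old and 3.26 to 5.26% in young muscle. Between 110 and 120 Mb 1 of 15 genes (6.67%) was separated in old and 0 in young muscle, and between 100 and 110 Mb 1 of 14 (7.14%) in old and 2 of 14 (14.3%) in young muscle.

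**Figure D5:**
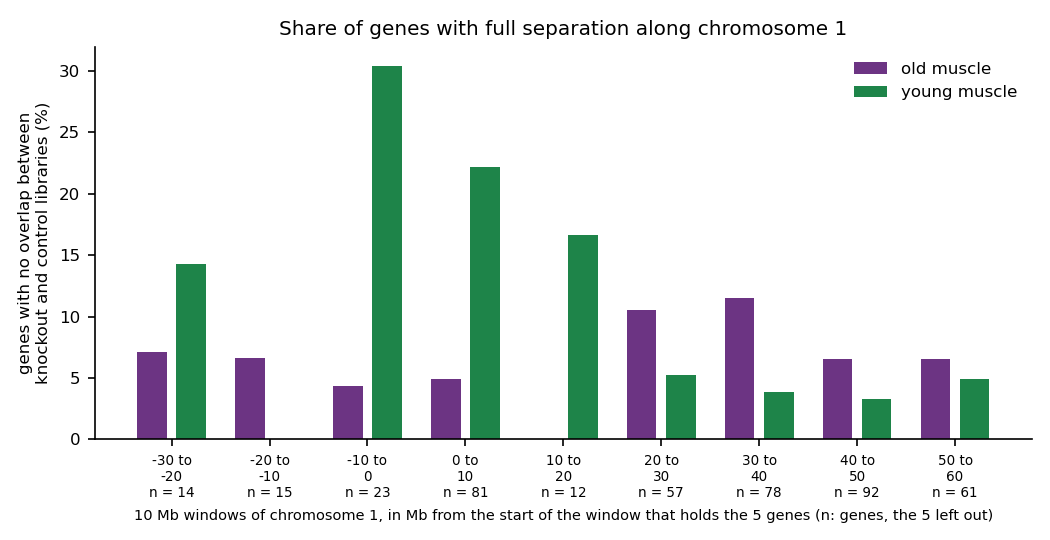
Share of genes, in percent, whose 3 knockout libraries all lie above or all lie below the 6 controls, in 10 Mb windows of the distal part of chromosome 1, for old (left bars) and young muscle (right bars), with the 5 genes left out. The young share is 22.2% in the window that holds them and 30.4% in the one before it, and the old shares there are 4.94% and 4.35%. Over all genes 2.76% lie above and 2.81% below the controls in young muscle, and 3.89% and 4.32% in old muscle.

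Genes that act with the 5 were listed by role, with the earlier results known. Since 0.0133% of all genes were called in old and 0.0657% in young muscle, a count of 0 in a list is near the background. At an unadjusted p under 0.05 the share of all genes was 18.2% in old and 8.53% in young muscle. DESeq2 called 380 genes over all in old and 67 in young muscle. The tropomodulins and other leiomodins, which like Lmod1 bind the slow-growing ends or nucleate actin filaments, had 0 of 6 called in old muscle by edgeR (3 at an unadjusted p under 0.05) and 0 of 6 in young muscle (0 unadjusted), with median log2 differences of -0.09 in old and -0.07 in young muscle, against 0.015 in old and -0.005 in young muscle over all genes. DESeq2 called 1 of them in old muscle, Lmod2, the cardiac leiomodin (log2 0.61 with edgeR, adjusted p = 0.181). Tmod1, which caps the slow-growing ends, was at -0.23 in old muscle (adjusted p = 0.238). Of 17 measured smooth muscle and pericyte genes 0 were called at either age by edgeR (3 unadjusted in old, 1 in young) or by DESeq2. The median difference was 0.17 in old muscle, with 11 positive and 6 negative, and 0.12 in young muscle, with 13 positive and 4 negative. Pcp4l1, a smooth muscle marker of the list, had the smallest p in old muscle, with a log2 difference of -0.82 (adjusted p = 0.205), and the pericyte gene Rgs5 was at -0.62 (adjusted p = 0.242). Acta2, smooth muscle alpha actin, had a log2 difference of 0.41 in old muscle (adjusted p = 0.228) and Myh11, smooth muscle myosin heavy chain, 0.39 in young muscle (adjusted p = 0.560). Of 17 genes of myosin phosphatase and its regulators, such as Ppp1r14c, an inhibitor of the phosphatase (old log2 -0.29, adjusted p = 0.217), and the kinase Rock2 (old log2 -0.40, adjusted p = 0.298), 0 were called at either age by edgeR (1 unadjusted in old, 2 in young) or by DESeq2.

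Of 20 p53 target genes 0 were called at either age by edgeR (4 unadjusted in old, 1 in young) or by DESeq2. In old muscle 7 had a positive and 13 a negative difference, with a median of -0.11, and in young muscle 10 a positive and 10 a negative one, with a median of -0.03. Plk2, a polo-like kinase, was at -0.75 in young muscle (adjusted p = 0.295), and in old muscle Pmaip1, the death-promoting protein Noxa, was at 1.75 (adjusted p = 0.174), and the nuclease gene Aen at -0.37 (adjusted p = 0.218). Without knockout 40 Pmaip1 was called by edgeR (log2 2.09, adjusted p = 0.04), the 1 call of this list (5% of it, against 3.49% of all genes in that setting). Of 12 other cathepsins and related aspartic proteases 0 were called at either age by edgeR (2 unadjusted in old, 1 in young) or by DESeq2, with medians of 0.28 in old and -0.04 in young muscle. Ctsb, a cysteine protease of lysosomes, was at 0.31 (adjusted p = 0.248) and Ctsl, another, at 0.21 in old muscle (adjusted p = 0.266). Without knockout 40 edgeR called 1 of the 12 (8.33%, against 3.49% of all genes), Ctsz, also a lysosomal protease (log2 0.68, adjusted p = 0.0258). A single call in a list this short cannot be told from that background. Other chitinases and chitinase-like genes had 0 of 3 called in old and 0 of 4 in young muscle by edgeR (0 unadjusted in old, 1 in young) or DESeq2. Ctbs, a lysosomal glycosidase, was at -0.17 (adjusted p = 0.536) and Chia1, acidic chitinase, at -0.49 in old muscle (adjusted p = 0.597). Phlda1, the other measured gene of its family, was at 0.01 in old muscle (adjusted p = 0.985) and -0.14 in young muscle (adjusted p = 0.918). Of 15 Notch pathway genes edgeR called 0 in old (4 unadjusted) and 1 in young muscle, Pofut1 itself, and DESeq2 called Notch2, a receptor, in old muscle (log2 0.61, adjusted p = 0.181 with edgeR). The ligand gene Dll1 was at 0.60 in old muscle (adjusted p = 0.238). Without knockout 40 edgeR called none of the genes of the other lists in old muscle.

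Cell type markers bear on genes such as Lmod1, Ctse and Chil1, which other cells of muscle also make. In bulk tissue fewer cells of a type and less RNA per cell cannot be told apart. Summed over 8 genes, skeletal muscle fibre markers ran from 396100 to 428700 CPM in old knockout and 268800 to 462600 in old control libraries, and from 347600 to 379100 CPM in young knockout and 323800 to 400600 in young control libraries. Beside Lmod1, 7 of 8 smooth muscle and pericyte markers were measured, with sums of 162 to 210 CPM in old knockout and 183 to 238 in old control libraries, and of 282 to 288 CPM in young knockout and 210 to 335 in young control libraries. Of the 17 smooth muscle genes only Myh11 lay above all young controls in every young knockout library, as did 2.76% of all genes. The others, Acta2, Tagln and Cnn1 among them, overlapped between knockout and controls. The part of smooth muscle cells in the Lmod1 values was not tested. Beside Ctse and Chil1, 8 of 9 macrophage markers were measured, with sums of 164 to 526 CPM in old knockout and 174 to 263 in old control libraries, and of 212 to 366 CPM in young knockout and 239 to 499 in young control libraries. In old muscle the highest macrophage sum, 526 CPM, was in knockout 45, the library with the lowest Ctse and Chil1 of the 3. The lowest, 164 CPM, was in knockout 40, the library with the highest Chil1. In young knockouts 80, 82 and 83 the sums were 366, 259 and 212 CPM, the same falling order as their Ctse and Chil1. The highest young sum, 499 CPM, was in control Cre 93, which had 0.103 CPM of each of these 2 genes. Neutrophil markers were not analysed here, as none of the 8 listed was among the genes measured. Of 4 B cell markers 2 were measured, with sums of 0.117 to 4.37 CPM in old knockout and 0.157 to 2.22 in old control libraries, and of 0.0378 to 0.228 CPM in young knockout and 0 to 0.18 in young control libraries. Adipocyte markers summed to 97.5 to 158 CPM in old knockout and 81.7 to 134 in old control libraries, and to 206 to 383 CPM in young knockout and 66.1 to 513 in young control libraries. Erythroid markers, an index of blood, summed to 91.6 to 1319 CPM in old knockout and 261 to 2467 in old control libraries, and to 77.5 to 274 CPM in young knockout and 84.4 to 830 in young control libraries. The part of other cells in the old and young differences was not tested.

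Across the 18 libraries, Phlda3 and Ppp1r12b were the pair most alike (Pearson r = 0.881 of log2 CPM), and both were opposite to Lmod1 (r = -0.794 for Phlda3 and -0.753 for Ppp1r12b). These values are a description, since the young knockout libraries that chose the genes set much of them. Over the 9 old libraries alone r was 0.632 for Phlda3 and Ppp1r12b, -0.214 for Lmod1 and Phlda3, and 0.145 for Lmod1 and Ppp1r12b. Chil1 and Phlda3 had r = -0.813 over 18 and -0.689 over 9 old libraries, and Ctse and Chil1 0.724 over 18 and 0.509 over 9 old libraries.

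Among 11315 genes of at least 1 CPM, the gene most like Lmod1 was Dip2c on chromosome 13 (r = 0.875), which was also most like Chil1 (r = 0.845) and second for Ctse (r = 0.787). Next for Lmod1 came St6galnac3 on chromosome 3 (r = 0.796) and Dgkd on chromosome 1 (r = 0.795). For Chil1 the next were its neighbours Pik3c2b (r = 0.831) and Plekha6 (r = 0.823). For Ctse Nfat5 on chromosome 8 came first (r = 0.809) and Rffl on chromosome 11 after Dip2c (r = 0.775). Phlda3 was followed, after Ppp1r12b, by Tbx15 on chromosome 3 (r = 0.832) and Ggact on chromosome 14 (r = 0.822). By rank Ggact was closer to Phlda3 (Spearman 0.942) than Ppp1r12b (0.593) or Tbx15 (0.61). Ppp1r12b was followed, after Phlda3, by Zranb3 on chromosome 1 (r = 0.852) and Esyt2 on chromosome 12 (r = 0.806). All of these points share the same 18 libraries.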

How the data were processed

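RNA of 18 quadriceps libraries, 3 for each of 3 genotypes at 2 ages, was depleted of ribosomal RNA and made into ScriptSeq libraries, per the labels' protocols. Reads were processed with STAR, HTSeq and DESeq2, per the submitters' processing notes, which name the builds GRCm38.p4 and GRCh38.p5. No source used here gives versions, options, the roles of the builds or the counting strand. The deposited count values are raw counts for 15224 genes, with row totals of at least 67. Normalized signal, which the authors also deposited, was not used. The authors' log2 fold changes and the authors' adjusted p-value for each comparison of 2 groups were copied as deposited.

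Members and gene lists were chosen with earlier results of these data known. Counts were tested in R 4.3.3 with edgeR 4.0.16 (limma 3.58.1), using TMM scaling, the quasi-likelihood test and Benjamini-Hochberg adjustment over all genes. Old muscle was fitted with the 9 old libraries alone (6 residual degrees of freedom, 15004 genes after filterByExpr with a minimum count of 10, biological coefficient of variation 21.5%). The young description comes from all 18 libraries (12 residual degrees of freedom, 20.1%). Scaling factors ran from 0.91 to 1.07. CPM use those factors, log2 CPM a prior count of 2. The SE is the size of the log2 change over the square root of F. Alternatives were DESeq2 1.42.0, RLE factors, other filters, Xist as a covariate, other libraries in the fit, exact permutation and leaving out each library. Values without old knockout 40 for the window, lists and permutation tests, and within libraries of like Xist, were added after seeing the data. The procedure was tested on simulated counts. Replicate numbers come from the titles, no 2 libraries share one, and they pair no samples. RefSeq positions were found for 14726 genes by Entrez number. Totals were 24901936 to 31440196 counts, so genes under 1 CPM rest on few counts.

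Named genes are the 5 members, Pofut1, Acta1, up to 8 separated neighbours of at least 1 CPM with the largest young change, list members called or with the 2 smallest old p-values, and the 3 genes most correlated with each member. Myh11, Rgs5, Plk2, Ctsz, Klhl12, Xist, Hal and LOC102640133 were added by hand once their values were known, outside the rule.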

Additional observations from a re-analysis of the deposited data

Results flagged for a closer look

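Among the 6 young control libraries, Ctse in floxed 57, at 0.324 CPM, stood apart from the other young controls, which had 0.0373 to 0.140 CPM. It was found by asking, in 12 groups of 6 control libraries, whether the highest or lowest value is far from the rest, and chance marks about 1 in 20 groups. The value rests on few counts and was below all young knockout libraries.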

How the results depend on the processing

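The young log2 differences kept their direction in 12 alternatives, from 3.20 to 3.78 for Ctse, 3.03 to 3.68 for Chil1, 1.49 to 1.79 for Lmod1, -2.18 to -1.90 for Phlda3 and -0.78 to -0.62 for Ppp1r12b. These alternatives refit the young libraries that chose the genes, so a kept direction was set by the choice and gives no support. Against both old controls, the adjusted p-values of edgeR and DESeq2 over the alternatives were 0.0804 to 0.378 for Ctse, 0.0811 to 0.366 for Chil1, 0.331 to 0.859 for Lmod1, 0.226 to 0.789 for Phlda3 and 0.459 to 0.995 for Ppp1r12b, so none was called. Exact permutation, unadjusted, put Ctse (log2 CPM difference 1.79) and Chil1 (1.27) under 0.05. The 2 genes called against both old controls became 380 with DESeq2, 227 with all 18 libraries, 1 with Xist as a covariate, and 0 to 526 with 1 library left out (526 without knockout 40, 5 without Cre 34, and 0 without floxed 48, 46 or 5, Cre 99 or 35, or knockout 17). The 0 against floxed became 604 with DESeq2, 570 with all 18 libraries, and 0 to 522 with 1 library left out (522 without knockout 40). The 2 against Cre became 73 with DESeq2 and 1 to 49 with 1 left out (49 without knockout 40). The 2 between Cre and floxed became 22 with DESeq2, 1 at a mean of at least 1 CPM, and 1 to 3 with 1 left out. The 10 of young muscle became 67 with DESeq2, 21 with only young libraries, and 1 to 14 with 1 left out (1 without knockout 82). The cause was not tested. With 1 library left out, log2 differences near 0 changed sign: Ppp1r12b against both old controls ran from -0.025 to 0.148 and against Cre from -0.082 to 0.194, Lmod1 against Cre from -0.049 to 0.548, and between old Cre and floxed muscle Ctse from -0.604 to 1.308, Chil1 from -0.818 to 0.105, Phlda3 from -0.184 to 0.375 and Ppp1r12b from -0.091 to 0.169. DESeq2 gave no adjusted p for Ctse or Chil1 in 6 cases, and genes under 1 CPM gave no value at that minimum. No paired analysis was possible because no 2 groups share a replicate number. Depth limits Ctse and Chil1 most.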
